A study of Mus musculus with 8 samples.

Results

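The genes of the AP-1 transcription factors were followed across 8 pools of mouse brain RNA: *Fos*, *Fosb*, *Fosl1* and *Fosl2* of the Fos family, *Jun*, *Junb* and *Jund* of the Jun family, and the related *Atf3*, *Batf* and *Maff*. These 10 genes, of 28785 named genes on the array, were taken by name as one family, with earlier results of these data known. They were measured by 12 of 41174 probes, with a pair of probes each for *Fosl2* and *Junb*. The probe of *Jund* was found through its accession, since the array names it *Jund1*.

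AP-1 is a family of dimers. Fos proteins pair with Jun proteins through a leucine zipper, and the dimer binds a short DNA element in the promoters and enhancers of target genes, while ATF3, BATF and the small Maf protein MAFF have the same kind of zipper and pair with partly different partners. Many of these genes are immediate early genes: in brain they are transcribed within a short time of synaptic activity, injury or loss of blood flow, and their protein products then switch on later genes of repair, matrix breakdown and inflammation. PACAP38 is a neuropeptide whose receptors raise cyclic AMP in the cell, and cyclic AMP signaling reaches genes such as *Fos* through the factor CREB.

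The study examined what an injection of PACAP38 does to gene expression in the ischemic hemisphere. Male C57BL/6J mice, 8 to 12 weeks old by the labels, had either permanent middle cerebral artery occlusion (PMCAO, by a filament passed into the vessel) or a sham operation, and received 1 pmol of PACAP38 or saline alone into the cerebral ventricle right after surgery. The ipsilateral (right) hemisphere was taken at 6 h or 24 h, and RNA of 3 mice was pooled for each of the 8 groups, 300 ng from each mouse. Only PMCAO mice with mild neurological grades were used, so the PMCAO pools stand for a selected part of the operated mice, while sham mice were taken at random. In whole hemisphere RNA, fewer cells of a type and less RNA per cell cannot be told apart.

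Each comparison of PACAP38 over saline was run on 2 arrays with the same pooled RNA and the Cy3 and Cy5 dyes exchanged. The 2 arrays are therefore 1 replicate, and there is no test within a comparison. All arrays of 6 h lay on one slide and all arrays of 24 h on another, so time and slide cannot be told apart. A gene was called up when the mean ratio of both arrays was above 1.5-fold and down when it was below 0.75-fold. Where an AP-1 probe had a value on 1 array only, that value was used. The shares over all probes cover only probes with a value on both arrays. Levels are given as normalized signal, the processed fluorescence of the probe after scaling between arrays, and can be compared between pools for one probe but not between probes.

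The 2 arrays of sham at 6 h stood apart. Taking the mean of both channels as the level of a probe on an array, the 2 arrays differed by over 2-fold for 42.4% of 36698 probes, whereas the share was 2.93% for PMCAO of 6 h, 2.39% for sham of 24 h and 2.03% for PMCAO of 24 h. Of the 11 AP-1 probes with a value on both sham arrays of 6 h, 7 differed by over 2-fold. By this measure no AP-1 probe did so in the other comparisons, although *Fos* in the single PMCAO pool with saline of 6 h was 3559 on array 1 and 8211 on array 2. On the second sham array of 6 h, 10.7% of spots were marked as outliers, against 0.323% to 3.09% on the other arrays. Spots well above background made up 62.1% to 76.0% of each channel. With all ratios turned to PACAP38 over saline, the 2 arrays of a comparison correlated over all probes at -0.148 (sham) and -0.14 (PMCAO) for 6 h, and at -0.417 (sham) and 0.053 (PMCAO) for 24 h. A negative value means that, over all probes, the difference between the channels followed the dye rather than the injection. Dye effects cancel in the mean of both arrays, and each AP-1 ratio is given on both.

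Promoter windows are shown first because *Fos* is known as a target of cyclic AMP signaling. Any link between these sequences and the levels below was not tested. The RefSeq table (build GRCm38.p6) held 11 windows, from 250 bases before to 50 after a start, for 9 of the 10 genes. *Fosl1* was not matched. The letters TGACG, or CGTCA on the other strand, are the core of the cyclic AMP response element. They were present in 7 of the 11 AP-1 windows, from 6 of the 9 genes, and in 20.8% of all 32851 windows. The full palindrome TGACGTCA, which contains the core on both strands, was in 1 AP-1 window (*Maff*) and in 1.79% of all windows. The element that AP-1 dimers themselves bind, TGACTCA or TGAGTCA, was in none of the 11 and in 5.2% of all, and the serum response element was in none and in 1.63%. Elements more than 250 bases before a start lie outside these windows. A match describes the letters in this window and is neither a binding site nor a cause. In these sequences capitals mark TGACG or CGTCA. The windows of *Fos* and *Atf3* are printed whole, and 60 bases around the match for the others.
Fos, chr12:85473640-85473939, plus strand: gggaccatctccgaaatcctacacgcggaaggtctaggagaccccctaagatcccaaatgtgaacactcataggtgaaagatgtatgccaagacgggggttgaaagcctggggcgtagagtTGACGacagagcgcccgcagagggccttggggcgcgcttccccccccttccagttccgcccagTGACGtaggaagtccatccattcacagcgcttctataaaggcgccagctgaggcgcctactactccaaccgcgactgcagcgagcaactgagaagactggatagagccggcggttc
Fosb, chr7:19310074-19310133, minus strand: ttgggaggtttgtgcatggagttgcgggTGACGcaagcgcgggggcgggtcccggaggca
Junb, chr8:84978823-84978882, minus strand: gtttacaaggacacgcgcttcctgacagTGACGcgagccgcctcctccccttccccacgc
Atf3, chr1:191183284-191183583, minus strand: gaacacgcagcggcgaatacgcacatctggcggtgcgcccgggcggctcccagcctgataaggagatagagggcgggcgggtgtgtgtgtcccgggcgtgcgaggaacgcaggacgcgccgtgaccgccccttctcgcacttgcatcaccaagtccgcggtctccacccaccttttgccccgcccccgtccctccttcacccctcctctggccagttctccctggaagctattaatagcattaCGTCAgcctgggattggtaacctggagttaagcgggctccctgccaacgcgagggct
Batf, chr12:85686594-85686653, plus strand: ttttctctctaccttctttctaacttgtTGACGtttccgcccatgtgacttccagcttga
Maff, chr15:79347463-79347522, plus strand: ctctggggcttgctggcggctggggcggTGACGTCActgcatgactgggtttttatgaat
Maff, chr15:79348252-79348311, plus strand: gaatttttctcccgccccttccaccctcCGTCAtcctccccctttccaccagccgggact

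In *Fos* the matches began 129 and 66 bases before the start. The match lay 60 bases before the start in *Fosb*, 106 in *Junb*, 7 in *Atf3* and 98 in *Batf*. *Maff* had a window for each of its start sites, one with the palindrome 29 bases before the start and the other with a match 122 bases before it.

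After PMCAO, the AP-1 genes were lower with PACAP38 than with saline at 24 h. All 12 probes were below saline on both arrays, against 17.6% of all 41167 probes, and 8 of the 10 genes were called down, against 8.18% of probes. None was called up, against 2.99%. The largest differences were in the Fos family, where *Fos*, *Fosb* and *Fosl1* were 3.15-fold to 3.93-fold lower. *Atf3*, *Junb* and *Maff* were about 2-fold lower. *Fosl2* and *Jund* did not pass the threshold. The median over the 12 probes was -1.02 on the log2 scale, beside 0 over all probes, and 10 probes were down on each of both arrays, against 3.75% of all probes. With 1 pool on each side these counts carry no test between mice.

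**Figure D1:**
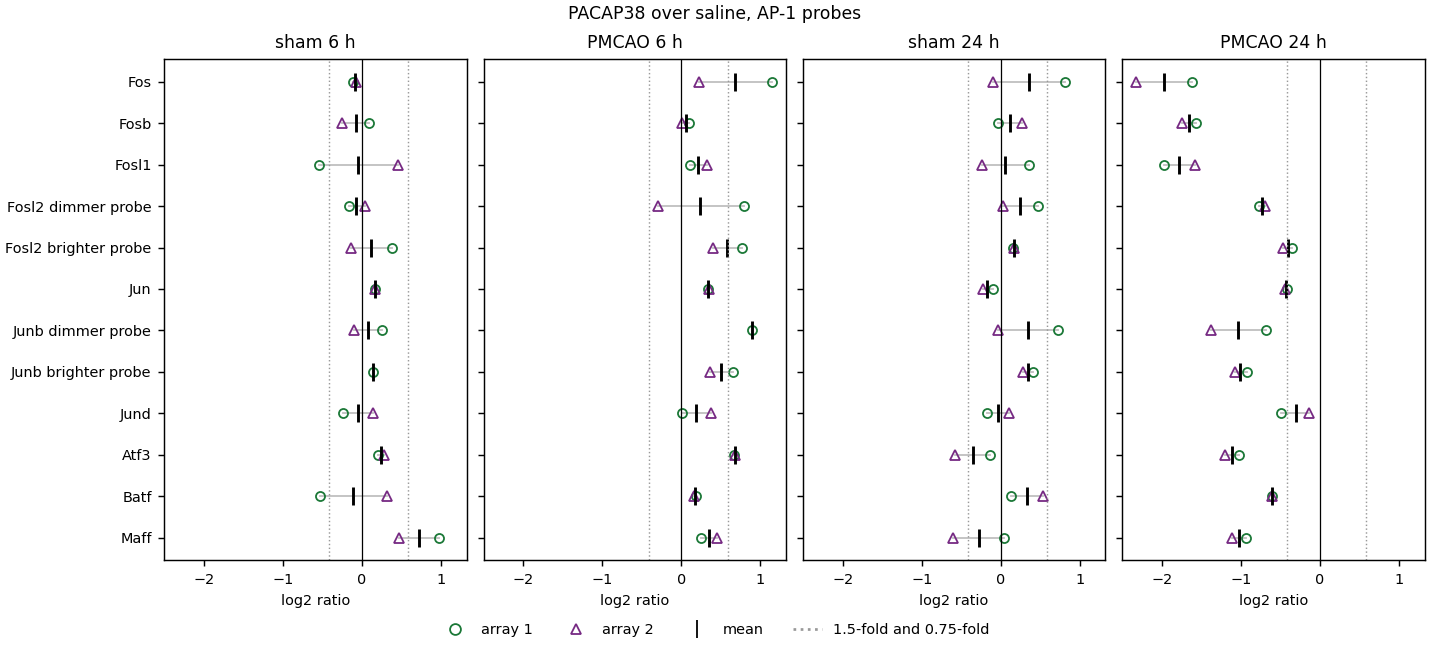
Log2 ratio of PACAP38 over saline for each AP-1 probe in the 4 comparisons, with each array and the mean of both marked. In PMCAO at 24 h all 12 probes lie below 0 on both arrays, and in PMCAO at 6 h 10 of the 11 probes with both arrays lie above 0.

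*Fos*, the founding immediate early gene of the family, is measured by a probe at mm7 chr12:83478431-83478490 (plus strand) that is spotted 10 times on each array. In PMCAO at 24 h its normalized signal was 1676 with saline and 425.9 with PACAP38. The sham pools of the same time lay between, at 592.5 with saline and 758.8 with PACAP38, so the PMCAO pool with PACAP38 was the lowest of the 8. The log2 ratio of PACAP38 over saline in PMCAO at 24 h was -1.62 on array 1 and -2.33 on array 2, a mean of -1.98 or 3.93-fold lower. The 10 spots ranged from -1.68 to -1.55 on array 1 and from -2.36 to -2.27 on array 2, so the spots of one array lay closer together than the arrays did. Of 41167 probes, 87 had a lower mean ratio than *Fos*.

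*Fosb* encodes a Fos protein whose stable splice form builds up in neurons after repeated stimulation. Its probe (mm7 chr7:16985502-16985561, minus strand) gave 338.4 with saline and 107.4 with PACAP38 in PMCAO at 24 h, and the sham pools gave 149.4 and 162.4. PACAP38 over saline was -1.57 and -1.75 on the 2 arrays, a mean of -1.66. As for *Fos*, the PMCAO pool with PACAP38 was below both sham pools of 24 h.

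*Fosl1* encodes FRA1, a Fos protein without the strong activation domain of FOS. Its probe (mm7 chr19:5350302-5350361, plus strand) was well above background in 12 of 16 channels and in none of those from sham at 24 h. In PMCAO at 24 h the signal was 213.9 with saline and 61.94 with PACAP38. PACAP38 over saline was -1.98 and -1.59 on the 2 arrays, a mean of -1.79 or 3.45-fold lower. Unlike *Fos* and *Fosb*, *Fosl1* with PACAP38 was still well above the signals listed for the sham pools, 10.01 and 10.44.

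*Fosl2* encodes FRA2, and its probes lie at mm7 chr5:31189767-31189826 (brighter) and chr5:31185231-31185290 (dimmer), both on the plus strand. The brighter probe gave 456.9 with saline and 344.1 with PACAP38 in PMCAO at 24 h, and 393.6 and 441.9 in sham. Its ratio was -0.35 and -0.47 on the 2 arrays, a mean of -0.41, and its fold of 0.753 fell just outside the threshold. The dimmer probe, well above background in 12 of 16 channels, gave 30.49 and 18.36, a mean of -0.73. Both probes were lower with PACAP38, but they gave different calls.

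In the Jun family the differences were smaller. *Jun*, the main partner of Fos proteins, was measured by a probe spotted 10 times (mm7 chr4:94441779-94441838, minus strand). It gave 3745 with saline and 2774 with PACAP38 in PMCAO at 24 h, beside 2495 and 2220 in sham. The ratio was -0.42 and -0.45 on the 2 arrays, a mean of -0.43, and its fold of 0.741 fell just inside the threshold. The PMCAO pool with PACAP38 thus lay between the sham pools and the PMCAO pool with saline.

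*Junb*, whose protein often opposes JUN at shared sites, had a pair of overlapping probes on the minus strand at mm7 chr8:83563097-83563156 (brighter) and chr8:83563059-83563118 (dimmer). They share sequence and are not independent measurements. The brighter probe gave 25560 with saline and 12720 with PACAP38 in PMCAO at 24 h, and 11350 and 14430 in sham. The ratio was -0.93 and -1.08 on the 2 arrays, a mean of -1.01, and that of the dimmer probe was -0.69 and -1.38, a mean of -1.04. With PACAP38 *Junb* was within the range of the sham pools on the brighter probe. On the dimmer probe it was 10100, below the sham pools at 10610 with saline and 13510 with PACAP38.

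*Jund*, the member of the Jun family that is expressed most steadily in resting cells, had the smallest difference of the 10 genes (mm7 chr8:69154598-69154657, plus strand). Its signal was 35600 with saline and 28640 with PACAP38 in PMCAO at 24 h, and 32070 and 31300 in sham. The ratio was -0.49 and -0.14, a mean of -0.31, and did not pass the threshold.

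*Atf3* is a stress gene that injured neurons switch on. Its probe (mm7 chr1:190724174-190724233, minus strand) gave 2368 with saline and 1093 with PACAP38 in PMCAO at 24 h, and 128.0 and 100.4 in sham. The ratio was -1.03 and -1.20 on the 2 arrays, a mean of -1.12 or 2.17-fold lower. In contrast to *Fos* and *Fosb*, *Atf3* with PACAP38 stayed far above both sham pools. *Maff* encodes a small Maf protein, which lacks an activation domain of its own (mm7 chr15:79441964-79442023, plus strand). It gave 2901 with saline and 1420 with PACAP38, beside 258.3 and 212.8 in sham, and its ratio was -0.94 and -1.12, a mean of -1.03. *Maff* therefore had the same form as *Atf3*. *Batf*, known best for its role in lymphocytes, was dim (mm7 chr12:83710402-83710460, plus strand). It gave 102.6 with saline and 67.15 with PACAP38, beside 49.96 and 62.85 in sham, and its ratio was -0.61 on both arrays.

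**Figure D2:**
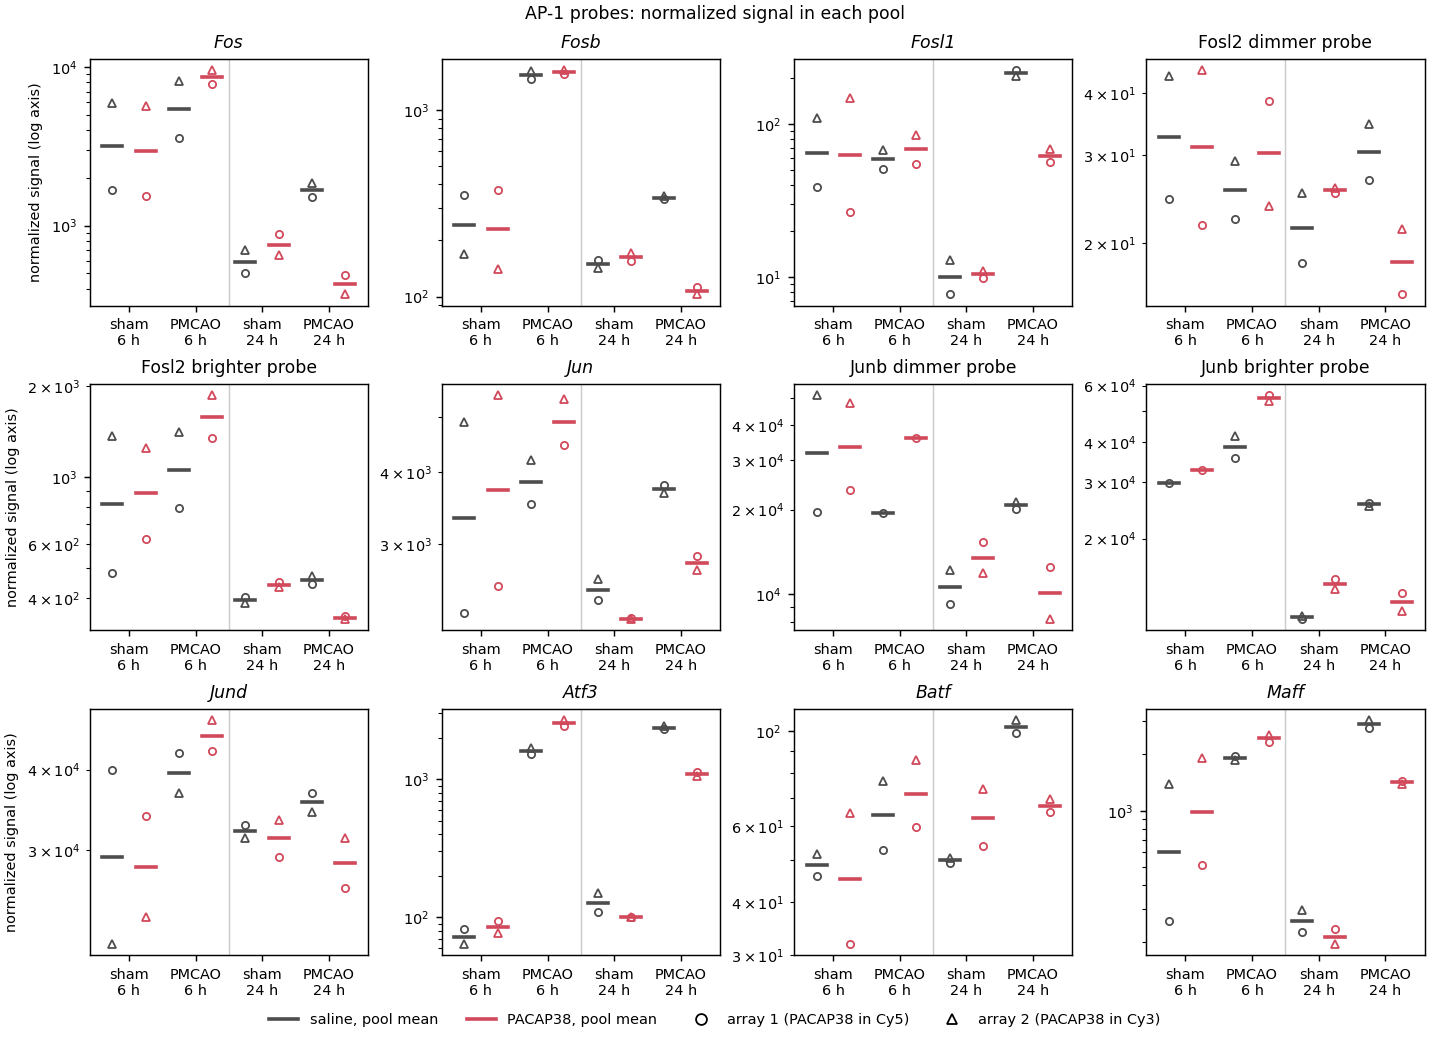
Normalized signal (log axis) of each of the 12 AP-1 probes in each of the 8 pools, with both arrays of a pool shown. The means of *Atf3* and *Maff* are higher in all PMCAO pools than in the sham pools of the same time, and *Fos* and *Fosb* in PMCAO at 24 h are high with saline (1676 and 338.4) and low with PACAP38 (425.9 and 107.4).

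At 6 h after PMCAO the AP-1 genes lay the other way, with smaller differences. Of the 11 AP-1 probes with a value on both arrays, 10 were above saline on both, against 20.5% of all 39772 probes. The exception was the dimmer probe of *Fosl2*, at 0.79 and -0.30. Only *Fos* and *Atf3*, 2 of the 10 genes, were called up, against 5.41% of all probes, and none was down, against 6.9%. The median over AP-1 probes was 0.348, beside 0 over all probes. The same 10 probes were above saline on both arrays at 6 h and below it on both at 24 h, against 5.06% of all probes.

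*Fos* was 5406 with saline and 8669 with PACAP38 in PMCAO at 6 h, the highest level of the 8 pools. The ratio was 1.15 on array 1 and 0.22 on array 2, a mean of 0.68. Without outlier spots, 7 of the 10 *Fos* spots were left on array 1 and 5 of 10 on array 2. These ranged from 1.03 to 1.22 on array 1 and from 0.108 to 0.268 on array 2. The arrays thus did not overlap, and array 2 alone did not pass the threshold. *Atf3* was 1595 with saline and 2547 with PACAP38, and its ratio was 0.67 and 0.68. It was the single AP-1 gene past the threshold on both arrays. *Fosl2* on its brighter probe was 1060 and 1587, with 0.77 and 0.40, and its mean of 0.58 was 1.498-fold, just under the threshold. *Fosb* was 1539 and 1600, with a mean of 0.06, and so hardly differed between the injections.

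**Figure D3:**
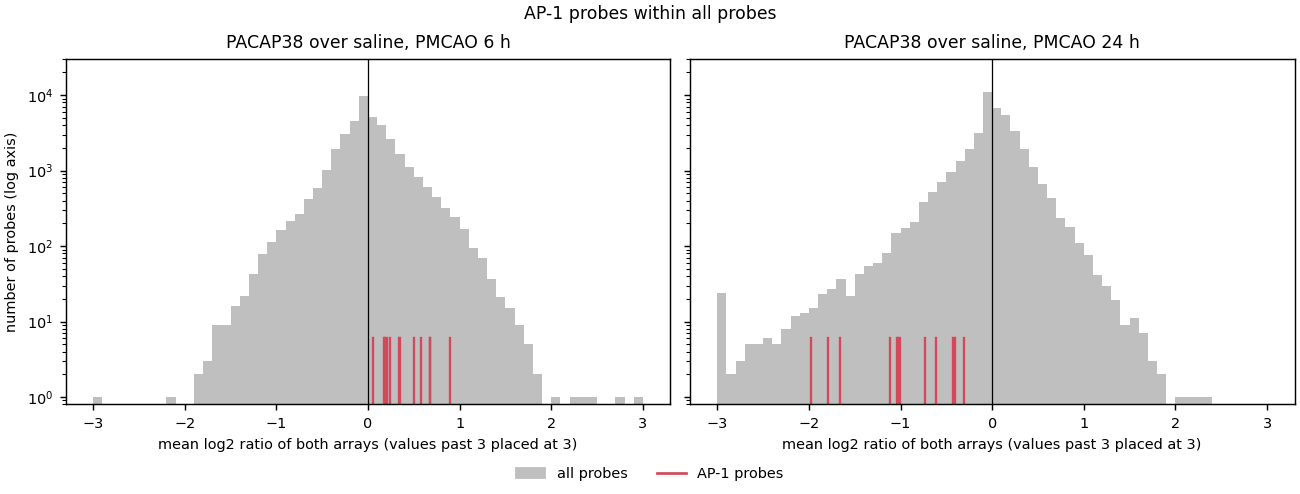
Number of probes (log axis) by mean log2 ratio of PACAP38 over saline in PMCAO at 6 h and at 24 h, with the AP-1 probes marked as lines over the histogram of all probes. The AP-1 probes had a median of 0.348 at 6 h and of -1.02 at 24 h, while the median of all probes was 0 at both times.

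In sham mice few AP-1 genes differed between the injections. At 6 h *Maff* alone was called up, with 599.6 with saline and 991.1 with PACAP38 and a ratio of 0.98 and 0.47, while 3.98% of all probes were up. No AP-1 gene was down, against 7.48% of probes. These arrays are the pair whose levels disagreed, and *Maff* with saline was 258.5 on array 1 and 1391 on array 2. At 24 h no AP-1 gene passed the threshold, against 1.75% of probes up and 3.87% down. *Fos* in sham at 24 h had ratios of 0.81 and -0.10, and *Atf3* of -0.13 and -0.58, so the arrays differed by more than most of the means. *Fosl1* was not well above background in either sham pool of 24 h.

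Levels were also set between PMCAO and sham, within one dye and then averaged over both dyes. The sham and PMCAO pools lay on different arrays of one slide, so these differences rest on the scaling between arrays. With saline at 24 h, 8 of the 10 AP-1 genes were called up after PMCAO, against 8.35% of probes, and none was down, against 14.4%. All but *Fosl2* (brighter probe) and *Jund* passed. The median over the 12 probes was 1.11, beside -0.023 over all probes. The PMCAO pool with saline enters both this comparison and that of PACAP38 over saline at 24 h, so the values of the 2 comparisons are not independent and are set side by side only.

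*Atf3* had the largest difference among the AP-1 genes with a measured sham level and was 18.5-fold higher at 24 h with saline (4.40 and 4.01 on the 2 arrays). *Maff* was 11.2-fold higher (3.61 and 3.37). *Fosl1* was at least 13.5-fold higher, a lower limit since sham was not well above background and its level was set at the lowest measurable signal. *Fos* was 2.83-fold higher (1.59 and 1.41), *Fosb* 2.27-fold, *Junb* 2.25-fold on the brighter probe and *Batf* 2.05-fold. *Jun*, at 0.67 and 0.50, was just past the threshold, with a mean of 0.59.

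With PACAP38 at 24 h, 3 genes were called up, against 5.68% of probes, and 2 down, against 9.04%. The genes that were up were *Atf3* at 10.9-fold (3.50 and 3.39), *Maff* at 6.67-fold (2.63 and 2.85) and *Fosl1* at no less than 3.37-fold. The genes that were down were *Fos*, 1.78-fold lower (-0.84 and -0.82), and *Fosb*, 1.51-fold lower (-0.46 and -0.73). The AP-1 genes thus split between those that remained above sham and those that were at or below it. *Junb* (-0.18 on the brighter probe), *Jun* (0.32), *Batf* (0.10) and *Jund* (-0.13) lay between the thresholds, and the median over the probes was -0.155. On their dimmer probes, *Junb* (-0.42) and *Fosl2* (-0.48) passed the threshold for down.

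**Figure D4:**
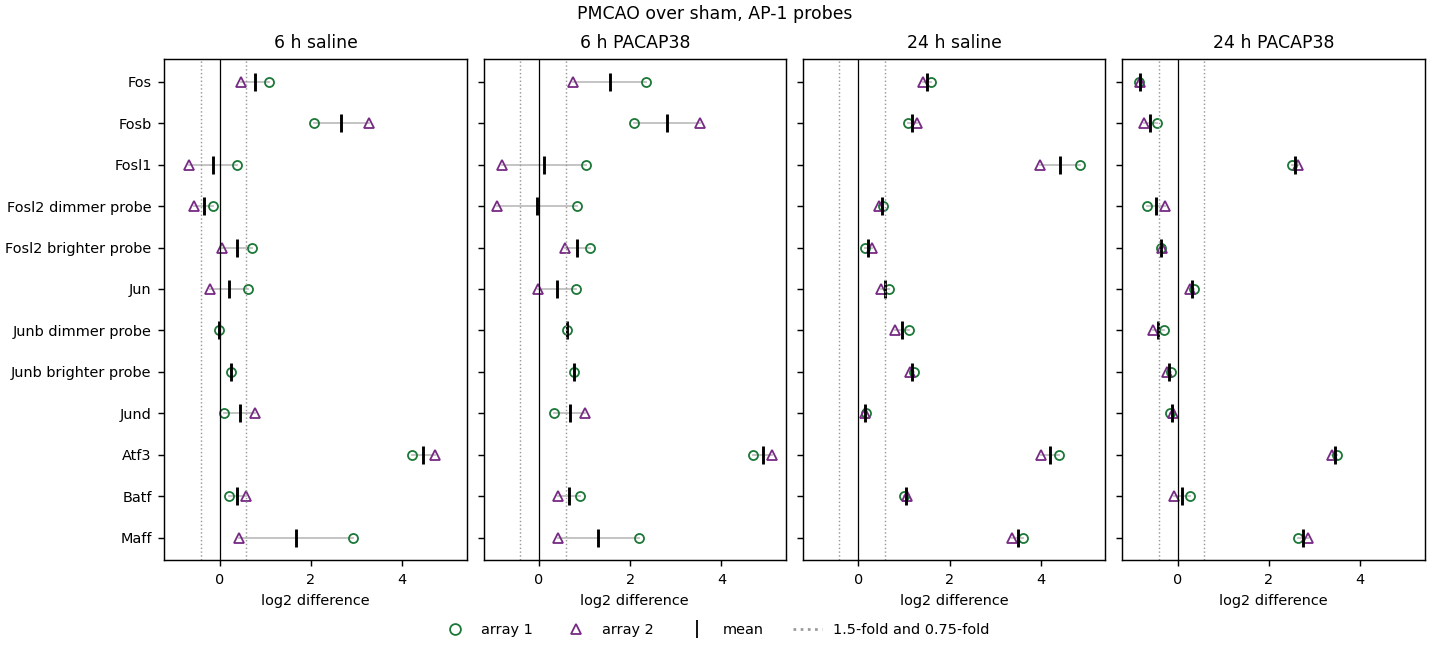
Log2 ratio of PMCAO over sham for each AP-1 probe at 6 h and 24 h with saline or PACAP38, by array and as the mean of both. At 24 h *Atf3* is far above 0 with either injection (18.5-fold and 10.9-fold), whereas *Fos* is above 0 with saline and below 0 with PACAP38. At 6 h the 2 arrays lie far apart for several probes.

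At 6 h with saline 4 AP-1 genes were called up after PMCAO, against 16.3% of probes, and none was down, against 37%. They were *Atf3* at 22.0-fold, *Fosb* at 6.35-fold, *Maff* at 3.19-fold and *Fos* at 1.71-fold. *Atf3* was 72.54 in sham and 1595 in PMCAO with saline, and *Fosb* was 242.4 and 1539. Both were higher on each array, *Atf3* by 4.21 and 4.71 and *Fosb* by 2.06 and 3.27 on the log2 scale. *Maff* was higher by 2.93 on array 1 and 0.42 on array 2. Its sham level differed between the arrays, and its PMCAO level was 1965 and 1862. *Fos* was higher by 1.09 and 0.46, and both its sham and its PMCAO level differed over 2-fold between the arrays. With PACAP38 at 6 h, 8 genes were up, against 12.9% of probes, and none was down, against 35.4%. Of these 8, *Junb* had a value on array 1 only, at 0.77 for its brighter probe. *Atf3* was 29.8-fold and *Fosb* 6.99-fold higher with PACAP38. The median of all probes at 6 h was not 0 but -0.147 with saline and -0.154 with PACAP38. The median AP-1 probe was at 0.383 and 0.724. This centre depends on the scaling: in the limma fit over pools, the median of all probes at 6 h was -0.14, and 0.21 when the arrays were scaled to the same median, and the AP-1 probes did not move alike. *Jund* went from 0.56 to 0.31 and the dimmer probe of *Fosl2* from -0.20 to 0.39, while *Atf3* went from 4.68 to 4.86.

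Over the pools, PMCAO and sham were compared with limma, taking the pools of both injections as 2 samples a group at each time. Injection was a covariate, and the arrays that 2 pools share were a random block. The fit covered 36121 probes and 10 of the 12 AP-1 probes, since each *Junb* probe lacked a value on 1 array. The 2 pools of a group differ in injection as well as in mice. A difference between the injections that is not the same at every surgery and time therefore enters the spread. The p-values measure only the spread between these pools that remains after the mean difference between the injections. In a simulation described below, such a fit gave too many small unadjusted p-values and too many false calls after adjustment. No AP-1 probe passed an adjusted p of 0.05 at 6 h, where 2.36% of all probes did. *Atf3* was higher by 4.68 ± 1.24 (log2, SE; 95% interval 1.15 to 8.20, unadjusted p = 0.0218, limma adjusted p = 0.130, between 0.00548 and 0.284 over 17 alternatives). No other AP-1 probe was under 0.05 before adjustment in that fit. *Fosb* was higher by 2.74 ± 1.35 (limma adjusted p = 0.317) and *Maff* by 1.49 ± 1.23 (limma adjusted p = 0.540). The sham pools of 6 h that disagreed between arrays enter this fit, and with array 1 alone for them *Atf3* was higher by 4.51 (limma adjusted p = 0.0854).

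At 24 h limma called no probe (0% of all), with 1516 of 36121 probes at an unadjusted p under 0.05. *Atf3* was higher by 3.83 ± 1.24 (unadjusted p = 0.0396, limma adjusted p = 1) and was again the 1 AP-1 probe under 0.05 before adjustment. *Fosl1* was higher by 3.49 ± 1.5 and *Maff* by 3.11 ± 1.23, each with a limma adjusted p of 1. *Fosl1* was not well above background in sham at 24 h. Its fitted differences, here and for 24 h minus 6 h, therefore rest on a sham level that was not measurable. Over both times, *Atf3* was higher by 4.25 ± 0.874 (95% interval 1.76 to 6.74, limma adjusted p = 0.141), in 4 of 4 pairs of pools. For 24 h minus 6 h limma called no AP-1 probe, with 0 at an unadjusted p under 0.05, although the fitted differences were as large as 3.51 for *Fosl1* and -2.44 for *Fosb*, so a difference between the times was not detectable with these pools. The mean of PACAP38 over saline over all 4 pairs of pools ranged from -0.39 for *Fosb* to 0.115 among AP-1 probes, with limma adjusted p from 0.872 to 1 and none under 0.05 before adjustment. That mean joins the pair of PMCAO at 24 h, where the AP-1 genes were lower, with 3 other pairs. In those 3 pairs most AP-1 probes were not lower on both arrays. Those that were lower on both were *Atf3* and *Jun* in sham at 24 h and *Fos* in sham at 6 h.

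Among relatives and regulators of AP-1, the differences at 24 h were fewer. Of 34 other leucine zipper factors, 6 were down and none up with PACAP38 in PMCAO at 24 h, with a median of -0.061, where 8.18% of all probes were down. *Cebpd* encodes a factor of the acute phase response. It was 21930 with saline and 10130 with PACAP38 (-1.10 and -1.13), beside 3095 and 2809 in sham. *Nfe2l3* gave 72.89 with saline and 91.43 with PACAP38, which did not pass the threshold, and 112.5 in sham with saline. The other genes of the list that were down, named after their values were seen, were *Nfe2* (-2.20, well above background in 4 of 16 channels), *Cebpb* (-1.0), *Bach1* (-0.88), *Nfil3* (-0.65) and *Nfe2l2* (-0.53). Of the 38 measured kinases and factors upstream of AP-1, 4 were down and none up, with a median of -0.011, again beside 8.18% of all probes. Named after their values were seen, these were *Map3k8* (-0.80), *Map2k3* (-0.50), *Map3k1* (-0.44) and *Elk1*, whose probe was well above background in none of 16 channels and gives no measured difference. *Rps6ka5*, which encodes the histone kinase MSK1, was 145.1 with saline and 208.2 with PACAP38 in PMCAO at 24 h, a difference of 0.52 on the log2 scale that did not pass the threshold. *Rps6ka3*, which encodes RSK2, was 234.2 and 214.7. Of 10 MAP kinase phosphatases, 1 was down beside the same share of probes, *Dusp1* at -0.75, itself an immediate early gene. *Dusp6*, which removes phosphate from ERK, was 7940 and 7872, and *Dusp9* was 133.6 and 148.0, and neither passed the threshold.

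Many known target genes of AP-1 were also lower with PACAP38. Of 48 measured targets, 33 were down with PACAP38 in PMCAO at 24 h, against 8.18% of all probes, and none was up, with a median of -0.684 beside 0 over all probes. *Ccl2*, a chemokine that attracts monocytes, was 6695 with saline and 2715 with PACAP38, beside 142.7 and 83.86 in sham, with a ratio of -1.01 and -1.60. *Timp1*, an inhibitor of matrix metalloproteinases, was 9431 and 2914, beside 725.1 and 480.2 in sham, with a ratio of -1.70 and -1.69. Both remained above sham with PACAP38, as did *Atf3* and *Maff*. Chosen after their values were seen, *Il11* was at -2.43, *Plaur* at -1.75 and *Spp1* at -1.47, while *Penk* was at 0.29 and *Bdnf* at 0.27 and did not pass the threshold. At 6 h after PMCAO, 8 of 46 targets with a value were up, against 5.41% of probes, and none was down, with a median of 0.146. In sham at 24 h 6 of 48 were down, against 3.87% of probes, with a median of -0.045. After PMCAO with saline at 24 h, 33 of 48 targets were up over sham, against 8.35% of probes, and 3 were down (*Penk*, *Bdnf* and *Cdk5r1*), with a median of 1.26. With PACAP38 20 were up, against 5.68% of probes, with a median of 0.450, and the 1 that was down, *Sprr1b*, was well above background in none of 16 channels. The targets were listed from general knowledge and can be regulated by other factors. Of the 98 fitted genes of these 4 lists, limma called none in PMCAO over sham at either time, with 19 at an unadjusted p under 0.05 at 6 h and 8 at 24 h.

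**Figure D5:**
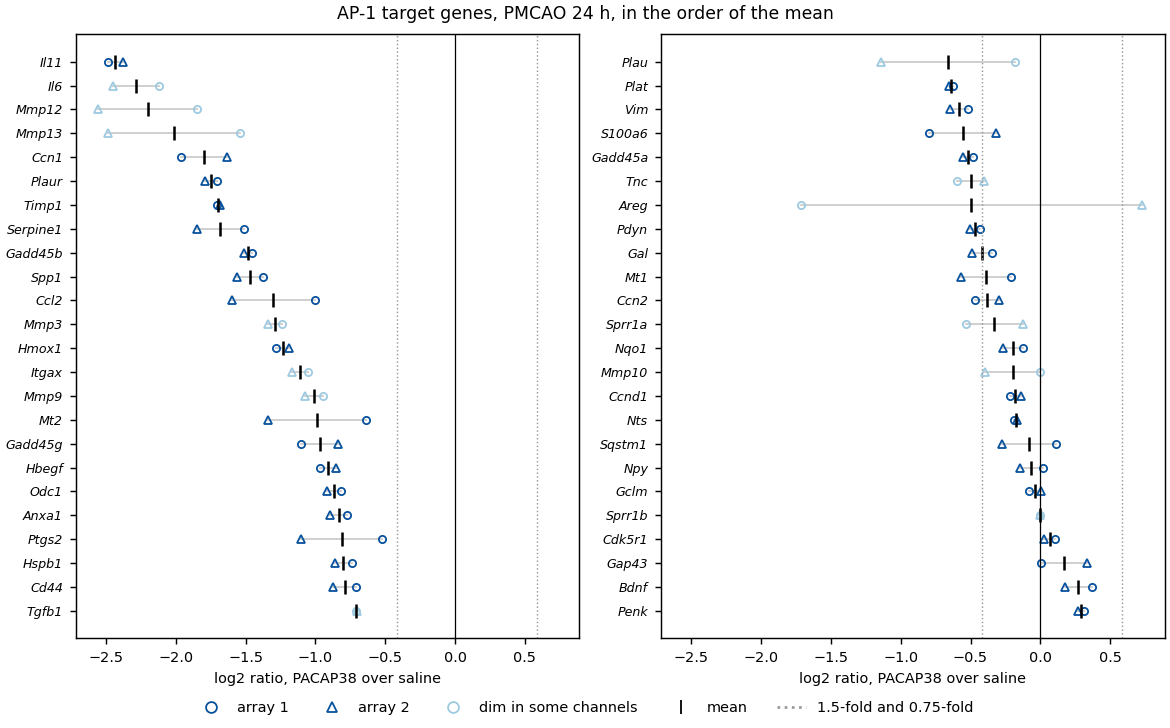
Log2 ratio of PACAP38 over saline in PMCAO at 24 h for each measured AP-1 target gene, in the order of the mean, by array. Of the 48 genes, 33 pass the threshold for down and none that for up, with *Timp1* near -1.70 on both arrays.

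Marker genes of cell types and regions also differed between the PMCAO pools of 24 h, and their part in the AP-1 result was not tested. The summed signal of 9 neutrophil markers was 44450 with saline and 5622 with PACAP38. Of the 9, 7 were down, against 8.18% of all probes. The sum was 716.1 and 1057 in the sham pools of 24 h, and *Camp* and *Elane* were above background in none of the pools. Markers of the olfactory bulb summed to 3286 with saline and 958.6 with PACAP38, with 7 of 7 down, beside the same share of probes. In sham at 24 h they were between 1169 and 1351. The paper describes hemispheres taken without the olfactory bulb and cerebellum. Striatal markers summed to 53490 and 68500, with 4 of 9 up, against 2.99% of all probes, and were about 80360 to 81940 in sham. Oligodendrocyte markers summed to 181500 and 134200, with 2 of 7 down. Endothelial markers summed to 15610 and 11630, with 4 of 7 down and 1 up. Markers of neurons (82400 and 85030), astrocytes (82840 and 77900), microglia (5751 and 5457) and T cells (257.7 and 270.5) differed less. At 6 h after PMCAO, when *Fos* and *Atf3* were higher with PACAP38, the neutrophil sum was 8962 with saline and 13260 with PACAP38. The olfactory bulb sum was 1696 and 2713 in these pools, and 1452 and 3239 in the sham pools of 6 h. All listed markers of neurons, astrocytes, oligodendrocytes, microglia and endothelial cells were above background in at least 1 channel.

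The AP-1 genes did not share one pattern over the 8 pools. As a description over log2 levels centred within each time, with pools that share arrays, the highest correlation between members was 0.972 (*Fosb* and *Jund*) and the lowest -0.114 (*Atf3* and the dimmer probe of *Fosl2*). *Fos* and *Fosb* were at 0.859 and *Atf3* and *Maff* at 0.9. Among 24467 probes well above background in at least 1 pool, those of other genes closest to *Fos* were *Hmgcs1* (r = 0.995), *Slc26a2* (0.985) and *Adamts4* (0.98). Those closest to *Atf3* were *Nfrkb* (0.997), *Jmjd1a* (0.997) and *Ubl5* (0.996). *Hmgcs1*, an enzyme of cholesterol synthesis, moved over a much smaller range than *Fos*, from 120 to 155 at 24 h where *Fos* went from 425.9 to 1676.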

How the data were processed

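RNA of 8 pools was measured on 8 two-colour Agilent arrays. The deposited scanner tables came from Feature Extraction, version 9.5.1.1 per the headers of the 6 h arrays and 9.5.3.1 per those of the 24 h arrays. For every spot the authors deposited a log10 ratio (Cy5 to Cy3), which the software had background-subtracted and dye-normalized, and the intensity of each channel, raw, local background and processed. A deposited series table repeats the processed ratio, and for arrays with PACAP38 in Cy3 its deposited score is that ratio turned negative. Second copies of 3 arrays of 24 h were identical and not used.

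The log10 ratios were turned to PACAP38 over saline, converted to log2, averaged over the spots of a probe without control and outlier spots, and then over the 2 arrays, which hold the same RNA. Levels are processed signals of each channel after Aquantile scaling between arrays. PMCAO over sham was tested with limma 3.58.1 (R 4.3.3) and Benjamini-Hochberg adjustment at 0.05 over 36121 probes, with 3 residual degrees of freedom and a block correlation of 0.728. A probe not well above background gives only a lower limit of a fold. The number of arrays limits the precision.

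The genes and the lists were chosen with earlier results of these data known. Named beside the AP-1 genes were, for *Fos* and *Atf3*, the 3 closest profiles and, from each other list, 2 genes. Among genes well above background in every channel with a value, these 2 had the largest absolute mean of 4 differences between PMCAO and sham. Missing differences were skipped, so *Cebpd* and *Dusp6* were ranked on those of 24 h only. The brightest probe stands for a gene in counts. Probe names came from RefSeq for 22944 probes and from the files for the others. Alternatives were normexp (offset 50) with loess, median scaling, the deposited ratios, outlier spots kept, a 2-fold threshold or both arrays past the threshold, the mean of all probes, only probes above background, other blocks, and leaving out arrays or pools. Sham at 6 h from array 1 alone was added after seeing the data.

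On simulated data with 100 probes changed by 2 and 100 by 3 on the log2 scale, the fit of PMCAO over sham over both times recovered 73 and 87 of them with 34 false calls among 36121 probes. There the block correlation was estimated at 0.221 where 0.5 was simulated. With 0.5 given, 55 and 71 were recovered with 1 false call. Of the unchanged probes, 13.6% had an unadjusted p under 0.05 with the estimated correlation and 5.99% with 0.5 given. The unadjusted p-values of the fit can therefore be too small. Calls at an adjusted p under 0.05 can also hold a larger false share than that threshold allows, as with the 34 beside 73 and 87. Python 3.11.15, numpy 2.4.6, pandas 2.3.3 and matplotlib 3.10.9 made the tables and plots.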

Additional observations from a re-analysis of the deposited data

Results flagged for a closer look

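For some AP-1 genes both arrays of one group lay on one side of 0 and both arrays of another group on the other side. These differences were not tested, since the 2 arrays of a group hold the same RNA. The differences below are of mean log2 ratios.

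The ratio of PACAP38 over saline after PMCAO was above 0 at 6 h and below 0 at 24 h for all 10 genes, with *Fosl2* and *Junb* on their brighter probes. The value at 24 h minus that at 6 h was largest for *Fos*, at -2.66, followed by *Fosl1* at -2.00, *Atf3* at -1.80, *Fosb* at -1.72, *Junb* at -1.51 and *Maff* at -1.38. It was -0.99 for *Fosl2*, -0.78 for *Batf*, -0.77 for *Jun* and -0.50 for *Jund*.

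The ratio of PACAP38 over saline at 24 h was below 0 after PMCAO and above 0 in sham for 3 genes. The share of all probes with this pattern was not counted, so the number of genes is a description only. The value in PMCAO minus that in sham was -1.36 for *Junb* (brighter probe) and -0.94 for *Batf*. It was -0.98 for the dimmer and -0.58 for the brighter probe of *Fosl2*.

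The ratio of PMCAO over sham at 24 h was above 0 with saline and below 0 with PACAP38 for 5 genes. Here too the share of all probes was not counted. The value with PACAP38 minus that with saline was -2.33 for *Fos* and -1.78 for *Fosb*. It was -1.38 and -1.35 for the dimmer and brighter probes of *Junb*, -0.99 and -0.58 for those of *Fosl2*, and -0.28 for *Jund*. These values use the same pools as those of PACAP38 over saline at 24 h and are not further evidence of them.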

How the results depend on the processing

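The count of AP-1 genes lower with PACAP38 in PMCAO at 24 h, 8 of 10, was 6 at 2-fold, 7 after normexp and loess, and 9 with either array alone. The other counts were less stable. In sham at 6 h, the 1 gene that was up (*Maff*) was lost (0) after normexp and loess, at 2-fold, and when both arrays had to pass. In PMCAO at 6 h, the 2 that were up became 0 at 2-fold and 1 with both arrays. In PMCAO over sham at 6 h with saline, 4 up became 2 with both arrays and 7 with outlier spots kept. With PACAP38, 8 up became 5 after normexp, 4 at 2-fold and 3 with both arrays. At 24 h with PACAP38, 2 down became 0 at 2-fold.

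With each array alone, the AP-1 genes that were up ranged from 1 to 4 in PMCAO at 6 h, from 0 to 1 in each sham comparison, from 3 to 6 and from 4 to 9 in PMCAO over sham at 6 h with saline and PACAP38, and from 7 to 8 and from 3 to 3 at 24 h. Those that were down ranged from 0 to 2 in each sham comparison, from 0 to 1 in PMCAO over sham at 6 h, from 9 to 9 for PACAP38 over saline in PMCAO at 24 h and from 2 to 2 for PMCAO over sham at 24 h with PACAP38. With either array alone, PACAP38 over saline in PMCAO had 0 genes up at 24 h and 0 down at 6 h.

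In limma, leaving out pools or arrays gave from 0 to 0 AP-1 probes past the threshold in each of the 5 contrasts. At 6 h, normexp gave 1 (*Atf3*), no block 3 (*Atf3*, *Fosb* and *Jund*) and fixed blocks 4 (also *Maff*). Over both times they gave 1 (*Atf3*), 4 (*Atf3*, *Fosb*, *Fosl1* and *Maff*) and 2 (*Atf3* and *Maff*), and for 24 h minus 6 h no block gave 1 (*Fosl1*). Of all 36121 probes, normexp called 3855, no block 15386 and fixed blocks 11546 over both times. For 24 h minus 6 h, no block called 12144. With no block and with fixed blocks, the AP-1 counts were therefore not above the share over all probes. Over all probes, the 854 of 6 h (214 up, 640 down) were 645 with median scaling (419 up, 226 down), 800 with outlier spots kept (456 up, 344 down), 7023 after normexp, 17751 with no block, 14693 with fixed blocks, 5 with only probes above background, and 420 (284 up, 136 down) with array 1 alone for sham at 6 h, and fell to 0 without any 1 of the 8 pools. At 24 h, where none was called, array 1 alone for sham at 6 h gave 221, no block 1066 and leaving out the arrays numbered 2 gave 124. The cause was not tested. No paired analysis was possible because the replicate numbers 1 and 2 mark a dye swap of the same pools, averaged to 1 replicate. The fixed blocks above pair pools by time and injection, not by number. No value past its threshold changed sign, but some below it did between the arrays, such as *Jun* (-0.22 and 0.63) and *Fosl1* with PACAP38 (-0.81 and 1.04) in PMCAO over sham at 6 h, and *Fos* in sham at 24 h (-0.10 and 0.81).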
